A study of Mus musculus with 4 samples.

Results

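The genes described here had low scaled counts in mouse gonads at E12.5 and E13.5 and higher scaled counts on both sides, at E11.5 and E14.5. The series holds 4 total RNA libraries from C57BL/6J wild-type embryos, with 1 library for each day from E11.5 to E14.5. Each library came from a pool of XX and XY gonads from 2 litters, with at least 6 male and 6 female gonads, and the mesonephros was part of the sample at E11.5 only. With 1 library per time point no difference between libraries has a replicate check, and all intervals below cover counting error only. The study also measured some transcripts by quantitative PCR with the sexes apart, among them Lars2, miR6236 and miR6240. It reports Lars2 as higher after E12.5 in gonads of both sexes, and those values were not used here. The E11.5 library held 31266481 deduplicated counts, the E12.5 library 25593453, the E13.5 library 31752562 and the E14.5 library 31526303, over 40999 features. Counts of a gene are given below in the order of the days and are not scaled.

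Members were chosen by the counts of all 4 libraries. Counts were divided by a size factor for each library (1.14, 1.06, 1.33 and 0.622 in the order of the days), the median of ratios over 11640 features with at least 100 counts in every library. A member had scaled counts (plus 1) at E11.5 and at E14.5 that were each at least 2-fold those at E12.5 and at E13.5, with 50 or more reads at E11.5 or E14.5. Names of tRNAs, snoRNAs, rRNAs and other short RNAs were left out. Of 14684 features with the minimum of reads, 109 met all 4 ratios, which is 0.742%. These values selected the members, so they are a description and were not tested. Each ratio alone was met by more features. E11.5 was at least 2-fold over E12.5 for 962 features (6.55%) and over E13.5 for 998 (6.80%). E14.5 was at least 2-fold over E12.5 for 783 (5.33%) and over E13.5 for 399 (2.72%). The opposite pattern, high at E12.5 and E13.5 only, was met by 39 of 14756 features.

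Between E11.5 and E12.5 the gonad goes from a ridge of somatic progenitors and arriving germ cells to a tissue that takes a testis or ovary course. The mesonephros beside it is a transient kidney of ducts and tubules with its own mesenchyme. Myeloid cells such as macrophages and neutrophils reach embryonic tissues through the blood. Total RNA libraries also hold ribosomal RNA in amounts that depend on how much of it was removed.

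The labelled tissue was checked against gene lists. The 10 germ cell genes summed to scaled counts of 669, 9359, 12008 and 10359 in the order of the days, with Dazl the most abundant. The 9 Sertoli cell genes summed to 3339, 21412, 18691 and 19758, with Amh the most abundant, and none of either list was at 0 in all libraries. Neither list holds a member. The 15 housekeeping genes summed to 254627, 233719, 220417 and 222176, with Eef1a1 the most abundant, and 0 of them were members.

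Of the 109 members, 71 had 50 or more reads at both E11.5 and E14.5. Another 29 passed the minimum at E11.5 only and 9 at E14.5 only. The smallest of a member's 4 ratios had a median of 2.68 and reached 16.9, and 20 members had a smallest ratio of 4 or more. The weakest ratio involved E14.5 in 47 members and E11.5 in 62. Counting intervals of the 4 folds describe depth and are no test, since the same folds chose the members. In 11 members the exact 95% interval of at least 1 fold reached 1 or less, and in the other 98 all 4 lay above 1. With total counts in place of size factors, an alternative chosen after seeing the data, all 4 intervals lay above 1 for 65 members.

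Which end of the time course was higher varied among the members. At E14.5, 37 members were at least 2-fold over E11.5, beside 8.84% of all features with the minimum, and 28 were at least 2-fold lower, beside 6.27%. The remaining 44 were within 2-fold. The median log2 ratio of E14.5 to E11.5 was 0.32 over the members and −0.015 over all features with the minimum. The libraries in the middle were closer to each other than the ends were, over the members and over all features alike. E13.5 was at least 2-fold over E12.5 in 10 of the 109 members, beside 1.59% of all features. E12.5 was at least 2-fold over E13.5 in 3 of the 109, beside 0.661%. The median log2 ratio of E13.5 to E12.5 was 0.059 over the members and 0.0069 over all features.

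The balance of the ends depends on scaling. With total counts, the median feature was lower by 1.08 on the log2 scale at E14.5 than at E13.5 and higher by 0.16 at E12.5 than at E11.5. Total counts include the 18S rRNA gene Rn18s-rs5, which took 1.03% of the E13.5 library and 40.7% of the E14.5 library. Its part in these shifts was not tested. Of the 109 members, 62 were higher at E14.5 than at E11.5, but 41 were with total counts. With total counts all 4 ratios were above 1 for 104 of the 109 and at least 2-fold for 44. The other 5, Rgs5, Osr1, Slitrk6, Rac2 and Pgm5, were lower at E14.5 than at E13.5 by that scaling. Folds of E14.5 given below rest on the size factors, and with total counts they are smaller by a factor of 1.85 against E11.5, 2.10 against E12.5 and 2.13 against E13.5. The intervals beside them do not cover this difference.

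**Figure D1:**
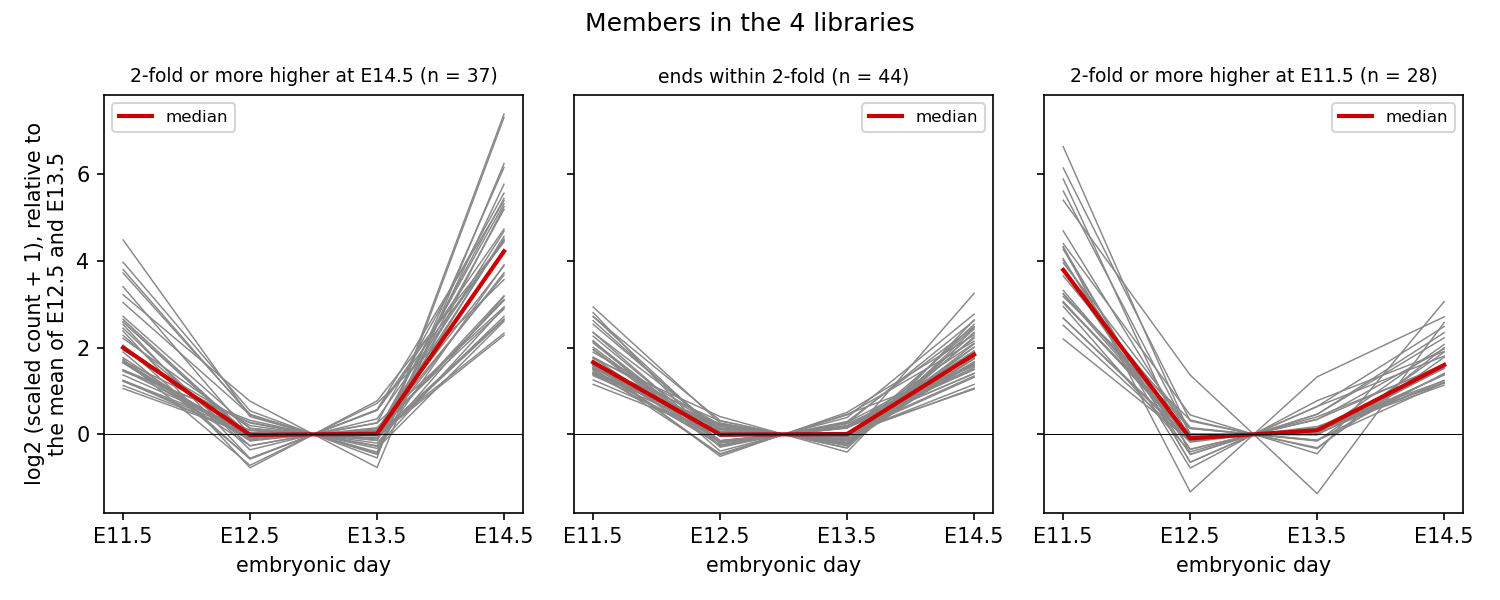
Each grey line is 1 member, with the embryonic day on the x axis and log2 of the scaled count plus 1 relative to the mean of its E12.5 and E13.5 values on the y axis, and the red line is the median of the panel. The panels hold 37 members higher at E14.5, 44 with similar ends and 28 higher at E11.5, and all lines are lower in the middle because members were chosen that way.

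Of all counts, the members took 1.48% in the E11.5 library (1.48–1.49, Wilson 95% interval), 0.398% in the E12.5 library (0.396–0.400), 0.286% in the E13.5 library (0.284–0.288) and 5.32% in the E14.5 library (5.31–5.33). Lars2 and LOC102639045 together held 46.4%, 19.9%, 14.4% and 84.6% of the members' counts in these libraries.

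Lars2 encodes the mitochondrial leucyl-tRNA synthetase and lies on chromosome 9 of mm10, at 123366940–123462664 on the plus strand. Its counts from E11.5 to E14.5 were 162002, 15652, 10378 and 1125000. Both middle libraries were far below both ends, and E14.5 was 12.7-fold over E11.5 (95% counting interval 12.7–12.8). LOC102639045, which RefSeq names Gm15564, is a noncoding RNA on chromosome 16 at 35966753–35983230 on the minus strand. Its counts were 53224, 4573, 2711 and 294680, and E14.5 was 10.2-fold over E11.5 (10.1–10.3). Per kilobase of exon, the scaled count of LOC102639045 at E14.5 was 1177595 and that of Lars2 was 454546.

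A list made for the present work holds both of these genes with LOC102639350, 3930402G23Rik and Gm5600, the lncRNAs that the study describes beside LOC102639045. The study does not group Lars2 with them. All 5 were members, but the list was drawn from these libraries, so its count is not independent. Gm5600, a lincRNA on chromosome 7, had 365, 19, 13 and 486 counts, and its smallest ratio of 16.9 was the largest of any member. 3930402G23Rik, a lincRNA on chromosome 8, had 214, 32, 21 and 1018 counts. LOC102639350 on chromosome 5 had 17, 2, 0 and 80 counts, so that E14.5 was at least 57.2-fold over E13.5 when a count of 0 is taken as 3 counts. The summed scaled count of the 5 was 188854, 19144, 9832 and 2283211, and Lars2 alone gave 1807274 at E14.5.

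The GENCODE M21 transcripts of Lars2 and Gm15564 share an unbroken run of 52 bases on the same strand. In Lars2 it lies in exon 21, in the 3′ UTR, at chr9:123462048-123462099 of GRCm38, the same assembly as mm10. In Gm15564 it crosses the junction of exons 1 and 2. The first 30 bases of the run are printed in capitals, since all of them are shared, to show the sequence common to both genes. No sequence of nuclear rRNA other than 18S was at hand, so neither this run nor the members Gm5600, 3930402G23Rik and Gykl1 were compared with it, and whether rRNA reads add to their counts was not tested.
Lars2 and Gm15564: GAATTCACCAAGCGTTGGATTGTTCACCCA

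The 18S rRNA gene Rn18s-rs5, which its name keeps out of the set, had the same order of values as Lars2. Its counts were 2833632, 334505, 325792 and 12816977, or 9.06%, 1.31%, 1.03% and 40.7% of the library. The part of ribosomal RNA in the members' values was not tested. A measure of likeness to Rn18s-rs5 was chosen after the values were seen. It is the largest difference in log2 ratio over the 3 steps from one time point to the next. It uses the same values as the rule, so closeness on it is no separate evidence. Within 1 on this scale came 3 of all features with the minimum, the members 3930402G23Rik, Gykl1 and Gm11514. Next among the members came Xylb at 1.065, Foxa1 at 1.095, Gm5600 at 1.108, 0610038B21Rik at 1.129 and LOC102639350 at 1.159. Lars2 differed by at most 1.46 and LOC102639045 by at most 1.47.

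Gykl1, a glycerol kinase-like gene on chromosome 18, had 708, 63, 42 and 1056 counts. Gm11514, a processed pseudogene on chromosome 11, had 92, 7, 9 and 208. Xylb, which encodes xylulokinase, had 3823, 591, 614 and 11570, and E14.5 was 5.56-fold over E11.5 (5.36–5.76). Each of these had its lowest value in a middle library and its highest at E14.5.

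Foxa1, a forkhead transcription factor of endoderm, had 170, 26, 48 and 908 counts, so that E14.5 was 9.81-fold over E11.5 (8.32–11.6). Il17re, an interleukin-17 receptor chain, had 315, 45, 63 and 735 counts. 0610038B21Rik, an antisense RNA whose exons overlap Arhgap10 on the other strand, had 135, 19, 26 and 491. 1700030F18Rik on chromosome 15 had 86, 12, 35 and 480, a ratio of E14.5 to E11.5 of 10.2 (8.13–13). All 4 were much higher at E14.5 than at E11.5.

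Another 7 members had abundant counts, 6 of them among the 10 with the highest scaled count per kilobase. Purg, a purine-rich element binding protein gene on chromosome 8, had 68368, 18893, 17979 and 87673 counts, and Mtcp1 on the X chromosome had 48187, 17810, 17080 and 46125. Ankrd60 had 24486, 8967, 6395 and 24749 counts. LOC102633691, with 25636, 10588, 9525 and 19837 counts, overlaps Zfp131 on the other strand. LOC102632589, with 26254, 10939, 10065 and 18476, overlaps the snRNA Gm26232 and a pair of tRNA genes on the same strand, so its reads may be shared with them. Its RefSeq gene ID maps to Gm26232 itself, so it was classed as an snRNA, although its exon length is 3054 bases. The smallest ratios of Purg, Mtcp1, Ankrd60, LOC102633691 and LOC102632589 were 3.35, 2.51, 2.53, 2.24 and 2.22 in this order. Slc16a11, a monocarboxylate transporter family gene, had 2779, 608, 808 and 3184 counts, and the lincRNA 4933408J17Rik had 2248, 439, 476 and 2291. E14.5 was 2.35-fold over E11.5 in Purg and 2.10-fold in Slc16a11, and the ends of the other 5 were within 2-fold. With total counts none of the 7 differed by 2-fold between the ends, with 1.27 in Purg and 1.14 in Slc16a11, and Mtcp1, LOC102633691 and LOC102632589 were lower at E14.5 than at E11.5. The smallest ratio was then 1.52 in LOC102633691 and 1.37 in LOC102632589, so they did not meet the rule, and the other 5 did.

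Nnat, a paternally expressed gene that encodes neuronatin, was the member among 11 imprinted genes. It had 7446, 2828, 2909 and 6051 counts, lower in scaled counts in both middle libraries than at either end, but with total counts its smallest ratio was 1.74, under the limit. The list summed to scaled counts of 320618, 197742, 189797 and 178682, with H19 the most abundant and none at 0 in every library, and so was highest at E11.5 and lowest at E14.5.

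**Figure D2:**
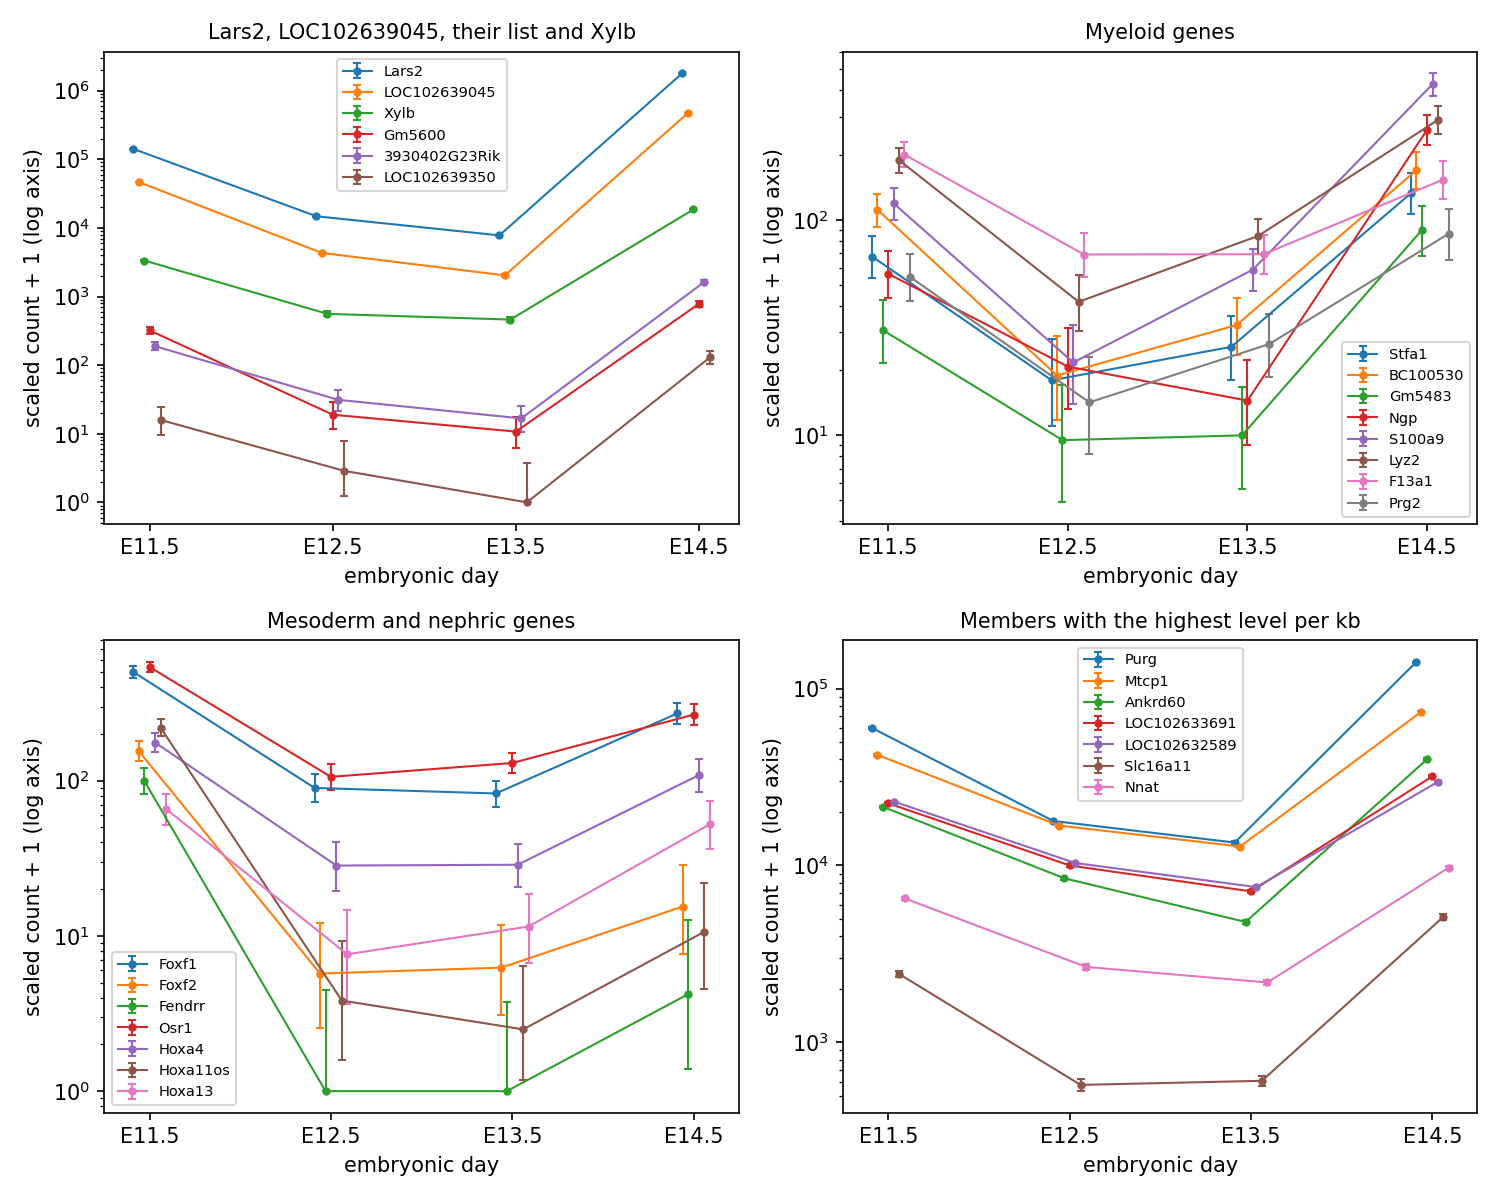
Scaled counts plus 1 on a log axis for 4 groups of members at each embryonic day, with exact 95% Poisson intervals of the count as bars and 1 library per point. Points of a gene are offset slightly on the x axis, and Fendrr stands at 0 counts at E12.5 and E13.5.

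Myeloid genes formed the next group. Fewer cells of a type and less RNA per cell cannot be told apart in pooled tissue. Of 24 neutrophil granule genes, 23 were in the files, 10 had the minimum of reads and 2 were members. S100a9, a calcium-binding protein of neutrophils, had 135, 22, 77 and 264 counts, and Ngp, a neutrophil granule protein, had 63, 21, 18 and 162. E14.5 was 3.59-fold over E11.5 for S100a9 (2.91–4.45) and 4.72-fold for Ngp (3.51–6.42). The list summed to scaled counts of 875, 398, 449 and 1854, with S100a9 the most abundant and none at 0 in every library. All 4 ratios were above 1 in 9 of the 10 genes with the minimum, beside 2751 of all 14684 features. The median smallest ratio of the 10 was 1.63. It was 1.44 in S100a8 and 0.669 in Pglyrp1, which are not members.

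Stefins are intracellular inhibitors of cysteine proteases, and a mouse cluster of them is expressed in myeloid cells. Of 13 genes listed for the cluster 9 were in the files, 3 had the minimum and all 3 were members. The study names genes of this cluster, Stfa1 among them, as differing between E13.5 and E14.5 in these same libraries. The count of members is therefore not independent of the rule. BC100530 had 126, 19, 42 and 105 counts, Stfa1 had 76, 18, 33 and 82, and Gm5483 had 34, 9, 12 and 55. These 3 lie on chromosome 16 between 36184212 and 36367570 and were the sole features with the minimum in that interval. Their sequences are similar, so the split of reads among them is uncertain. The list summed to 272, 62.3, 85.4 and 614, with BC100530 the most abundant and none at 0 in every library.

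Of 15 macrophage genes, 14 were in the files, 10 had the minimum and 2 were members. Lyz2, the lysozyme of macrophages and neutrophils, had 215, 43, 111 and 180 counts. F13a1, the A chain of coagulation factor XIII, had 228, 72, 91 and 95. All 4 ratios were above 1 in 9 of the 10 genes with the minimum, beside 2751 of all 14684 features. The median smallest ratio of the 10 was 1.40, and it was 1.06 in Cd68 and 1.11 in Mrc1. Pf4 fell from day to day, with scaled counts of 171, 115, 34.5 and 22.5. The list summed to 2847, 1178, 1139 and 1782, with Mrc1 the most abundant and none at 0 in every library. Its unscaled sum was 1520 at E13.5 and 1109 at E14.5. Prg2, the major basic protein of eosinophils, had 61, 14, 34 and 53 counts. It was the member among 13 mast cell, basophil and eosinophil genes, 5 of them with the minimum. The list summed to 4361, 3045, 3205 and 2349, with Kit the most abundant and Fcer1a at 0 in every library. Prg2 was the sole gene of those 5 with all 4 ratios above 1. Scaled counts were 1544, 2366, 2189 and 1284 for Kit and 63.9, 135, 154 and 165 for Hdc. They were 1.75, 15.1, 45.0 and 81.9 for Cpa3 and 2653, 434, 692 and 594 for Gata2. With total counts Ngp and the 3 stefins met the rule, and S100a9, Lyz2, F13a1 and Prg2 did not. The part of cell numbers in these values was not tested.

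Other members of myeloid cells lie outside the lists and were named after their values were seen. Itgb2, the β2 integrin of leukocytes, had 71, 19, 25 and 30 counts. Rac2, a GTPase of blood cells, had 174, 67, 84 and 83, and Olfm4 had 113, 33, 44 and 73. With total counts E14.5 was 0.995 of E13.5 in Rac2, and the smallest ratio was 1.20 in Itgb2 and 1.66 in Olfm4, so none of the 3 met the rule. F630028O10Rik, an antisense RNA on the X chromosome whose exons overlap Mir223 on the same strand, had 57, 15, 27 and 33, and with total counts its smallest ratio of 1.22 did not meet the rule. The mature miR-223-3p from that locus had 1, 0, 0 and 0 counts, and its difference between libraries was not detectable at this depth. Its sequence from RefSeq (GRCm38.p6, chrX:96242884-96242905, plus strand) is shown with the seed in capitals.
miR-223-3p: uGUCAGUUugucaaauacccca

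RefSeq promoters were matched by symbol for 61 of the 109 members. The 4 of the listed myeloid genes that have a single promoter in the table are printed below, since they share a dip, in the build GRCm38.p6. Capitals mark the letters AGGAAG, a purine-rich core of the kind bound by ETS factors, or TATAAA, on either strand. Both motifs were chosen after the sequences were seen.
Ngp, chr9:110419558-110419857, plus strand: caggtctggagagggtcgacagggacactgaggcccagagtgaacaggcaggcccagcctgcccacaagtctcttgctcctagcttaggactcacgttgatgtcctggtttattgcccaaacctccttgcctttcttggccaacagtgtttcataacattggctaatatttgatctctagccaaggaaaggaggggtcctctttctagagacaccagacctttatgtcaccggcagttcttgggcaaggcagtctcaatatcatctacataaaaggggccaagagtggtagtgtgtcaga
S100a9, chr3:90695672-90695971, minus strand: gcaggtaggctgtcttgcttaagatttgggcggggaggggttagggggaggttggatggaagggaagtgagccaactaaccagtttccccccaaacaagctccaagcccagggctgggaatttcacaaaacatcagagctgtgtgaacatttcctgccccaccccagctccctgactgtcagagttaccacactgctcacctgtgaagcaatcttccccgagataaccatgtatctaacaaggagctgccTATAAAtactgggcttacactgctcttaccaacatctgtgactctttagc
Lyz2, chr10:117282223-117282522, minus strand: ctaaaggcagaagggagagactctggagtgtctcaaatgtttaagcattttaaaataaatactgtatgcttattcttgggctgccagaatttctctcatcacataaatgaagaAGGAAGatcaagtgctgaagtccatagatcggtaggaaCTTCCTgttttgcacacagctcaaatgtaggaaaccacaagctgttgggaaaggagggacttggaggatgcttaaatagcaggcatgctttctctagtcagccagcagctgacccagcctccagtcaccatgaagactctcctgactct
Stfa1, chr16:36276898-36277197, plus strand: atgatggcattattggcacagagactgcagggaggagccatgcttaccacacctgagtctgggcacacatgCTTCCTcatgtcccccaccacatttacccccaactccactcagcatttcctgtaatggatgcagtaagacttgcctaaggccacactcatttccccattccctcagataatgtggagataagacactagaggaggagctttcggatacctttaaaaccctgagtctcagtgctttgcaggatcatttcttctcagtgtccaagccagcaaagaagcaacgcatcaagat
AGGAAG occurred 2 times in Lyz2, 1 time in Stfa1 and 0 times in Ngp and S100a9, and TATAAA occurred 1 time, in S100a9. Of 32851 promoters of the same length in all, 35.4% held AGGAAG and 13.6% held TATAAA. Among the 81 promoters of the matched members the shares were 37.0% and 8.64%. A match is a run of letters and not a site.

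The Foxf genes and Fendrr, of splanchnic mesoderm, were highest at E11.5, the library that included the mesonephros. Time and the mesonephros cannot be told apart at E11.5. Of 13 intestinal epithelium and mesoderm genes, 5 had the minimum and 3 were members. Barx1 and Nkx2-3 had the minimum but were not members, with smallest ratios of 0.618 and 0.803. Barx1 had 123, 185, 162 and 91 counts and Nkx2-3 had 112, 1, 3 and 1. Foxf1, a forkhead factor of splanchnic mesoderm, had 572, 94, 109 and 168 counts, and E14.5 was 3.04-fold over E12.5 (2.35–3.96) and 3.30-fold over E13.5 (2.58–4.25). Foxf2 had 176, 5, 7 and 9 counts, and its folds of E14.5 over the middle libraries, 3.06 (0.922–11.6) and 2.76 (0.914–8.71), were not distinct from 1 at this depth. Fendrr, a long noncoding RNA beside Foxf1, had 113, 0, 0 and 2. It passed the minimum of reads through E11.5, where it was at least 34.9-fold over E12.5 and 44.0-fold over E13.5. Its ratios of E14.5 met the rule on 2 counts with the added 1, at a smallest ratio of 4.21. No fold is given for E14.5, since all 3 later counts lie at or under 3, and a rise there is not measurable. The list summed to 1068, 385, 414 and 565, with Foxf1 the most abundant and none at 0 in every library. Foxf1 gave 501, 88.7, 81.7 and 270 of these sums. The unscaled sum was 552 at E13.5 and 352 at E14.5. With total counts the smallest ratio of Foxf1 was 1.45 and that of Foxf2 was 1.26, so neither met the rule.

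Fendrr and Foxf1 form a neighbourhood on chromosome 8, with Fendrr at 121054882–121083032 on the minus strand and Foxf1 at 121084386–121088154 on the plus strand. They were the features with the minimum there.

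Some Hox genes, which pattern the body axis, were members. They were not drawn from a list, and Hox genes that were not members are not counted here. Hoxa13 had 74, 7, 14 and 32 counts and Hoxa4 had 200, 29, 37 and 67. Hoxa11os had 250, 3, 2 and 6, and its exons overlap Hoxa11 on the other strand, and only the strand could separate their reads. Its fold of E14.5 over E12.5, 3.40 (0.727–21), was not distinct from 1. These 3 lie between 52189687 and 52260880 on chromosome 6, where 10 features had the minimum. Hoxa11 in that interval was not a member, with 446, 12, 7 and 4 counts and a smallest ratio of 0.602. Hoxb1 had 55, 0, 0 and 1 counts, so it too passed the minimum of reads through E11.5. Its ratios of E14.5 met the rule on 1 count with the added 1, at a smallest ratio of 2.61, and a rise there is not measurable. Hoxc12, with 914, 307, 352 and 952, and Hoxd1, with 55, 5, 5 and 8, were named after their values were seen. The folds of E14.5 in Hoxd1, 2.72 over E12.5 (0.785–10.6) and 3.43 over E13.5 (0.990–13.3), were not distinct from 1. With total counts Hoxa13 and Hoxc12 met the rule and the other Hox members named here did not. Of the Hox genes named here Hoxc12 alone had a higher scaled count at E14.5 than at E11.5.

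Osr1, a zinc finger factor of intermediate mesoderm, was the member among 19 nephric duct and tubule genes, all 19 with the minimum. It had 615, 111, 172 and 165 counts, and its ratio of E14.5 to E13.5 was just inside the limit. With total counts that ratio was −0.049 on the log2 scale. The list summed to 14111, 5841, 5191 and 4636, with Emx2 the most abundant and none at 0 in every library, and so was not higher at E14.5 than at E13.5. Th, the tyrosine hydroxylase of sympathetic neurons, was the member among 15 sympathetic genes, 14 with the minimum, and had 93, 2, 10 and 11 counts. E14.5 was 2.36-fold over E13.5 (0.909–6.19), not distinct from 1, and with total counts its smallest ratio was 1.10. That list summed to 2670, 367, 377 and 455, with Tubb3 the most abundant and none at 0 in every library. Tubb3 gave 172, 57.6, 135 and 249 of these sums. All 4 ratios were above 1 in 5 of the 14 genes, and Isl1, Gap43, Stmn2 and Chgb were lowest at E14.5. The unscaled sum of the list was 503 at E13.5 and 283 at E14.5.

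Agtr2, the type 2 angiotensin receptor gene on the X chromosome, had 1588, 229, 200 and 536 counts, and its smallest ratio was 3.97. Moxd1, a monooxygenase gene on chromosome 10, had 452, 26, 17 and 97, with a smallest ratio of 6.14. Spint1, a serine protease inhibitor of epithelia, had 170, 29, 23 and 72. In Agtr2 and Moxd1 E11.5 was the highest library, and in Spint1 E14.5 was 0.778-fold E11.5 (0.582–1.03), not distinct from 1, but with total counts it was 0.424-fold. With total counts the smallest ratio was 1.90 in Agtr2 and 1.99 in Spint1, under the limit, and 2.96 in Moxd1. The antisense RNA Gm14092 on chromosome 2 had 270, 2, 6 and 12 counts, and E14.5 was 4.29-fold over E13.5 (1.49–13.9), but with total counts its smallest ratio was 1.86.

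**Figure D3:**
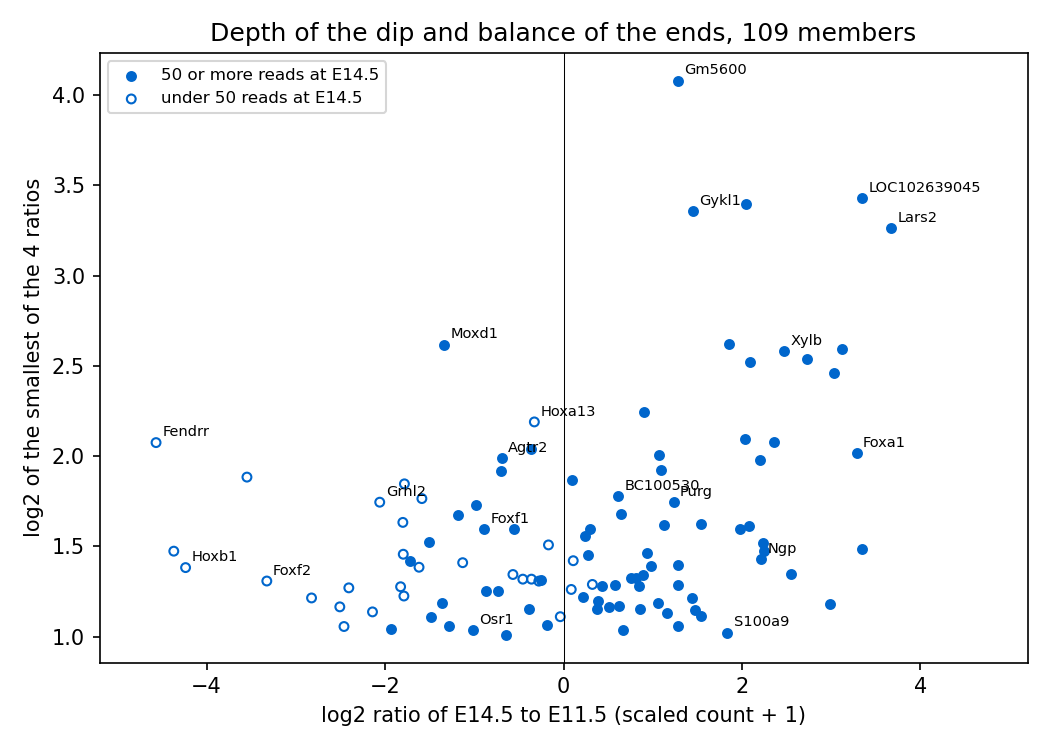
Each point is 1 of 109 members, with the log2 ratio of E14.5 to E11.5 on the x axis and log2 of the smallest of its 4 ratios on the y axis, and open points had under 50 reads at E14.5. Gm5600 stands highest, at a smallest ratio of 16.9, and the members far to the left, such as Fendrr and Hoxb1, are open points.

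Just inside the limit stood Pgm5, with a smallest ratio of 2.01 and 1479, 415, 549 and 516 counts, S100a9 with 2.03 and Osr1 with 2.05. Just outside stood Angpt2 with 1.99 (163, 8, 66 and 62 counts), Rab39b with 1.99 (112, 20, 18 and 24) and Brinp1 with 1.99 (361, 40, 63 and 59).

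Features that the rule did not use were set beside those of all 14684 features with the minimum. Protein-coding genes were 83 of the members (76.1%) and 89.2% of all. Long noncoding RNAs were 14 (12.8%) and 3.16% of all, pseudogenes 3 (2.75%) and 5.45%, and 8 members (7.34%) had no class, beside 2.02%. Of the 37 members at least 2-fold higher at E14.5, 23 were protein-coding, and of the 28 at least 2-fold higher at E11.5, 25 were. The median exon length was 2947 bases over the members and 3338 over all.

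Exons of 22 members (20.2%) overlapped a feature on the other strand, beside 18.1% of all, and those of 4 members (3.67%) overlapped one on the same strand, beside 3.07%. Over chromosomes 1 to 19 and X, the share of features with the minimum that were members ran from 0 of 693 on chromosome 17 to 10 of 582 on chromosome 15 (1.72%), beside 0.742% over all, and 1 of 11 on the Y chromosome was a member. Neighbourhoods, meaning 2 or more members with gaps of at most 100 kb, numbered 3, on chromosomes 16, 6 and 8 as given above, and they hold 8 members. Each interval is bounded by its own members. How often features with the minimum lie this close was not computed, so the number is not read as clustering. It includes Fendrr and Hoxa11os, whose rise at E14.5 was not distinct at this depth.

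Features left out by name met the 4 ratios more often. Of 480 with the minimum, 58 did, which is 12.1% beside 0.742%. Among them were 22 of 175 features whose names begin with n-T, which are tRNAs, and 19 of 93 that begin with Snor. For the other prefixes the counts were 6 of 117 with Rn, 1 of 32 with Trn, 0 of 9 with Scarna, 4 of 27 with microRNA, 4 of 25 with mmu- and 2 of 2 with n-R. Rnf24, a protein-coding ring finger gene whose name begins with the letters of an rRNA prefix, was left out as well, with 3734, 1423, 1824 and 3335 counts and a smallest ratio of 2.39.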

How the data were processed

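RNA came from pooled gonads, 1 library per time point, grouped by the deposited labels. The authors depleted rRNA with RNase H, made stranded libraries with UMIs by the SEQuoia Complete kit, aligned reads with STAR to mm10 (per the submitters' processing notes), removed UMI duplicates and assigned reads to genes with featureCounts, and these deposited counts were used as they stand. The study describes its genes as identified from uniquely mapped reads. Tool versions, the annotation release and the strand setting are not given in the sources used here. The deposited TPM values were made by the authors from these counts and exon lengths and served as 1 alternative. The deposited RPKM values were not used.

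Members and lists were chosen with earlier results of these data known. Size factors, ratios and exact Clopper-Pearson intervals (95%) of folds were computed with scipy 1.17.1, pandas 2.3.3 and numpy 2.4.6 under Python 3.11.15. The script that applies the rule was checked on simulated counts. TMM factors came from edgeR 4.0.16 in R 4.3.3, and figures from matplotlib 3.10.9. The floor was 3 counts in a library. No statistical test between libraries was made. RNA classes came from GENCODE M21 or RefSeq, by symbol, gene ID or synonym. Of 38 gene lists, 9 held a member, 19 members in all.

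The rule for named genes took the 15 members with the largest smallest ratio among those with 50 or more reads at both ends, the 10 with the highest scaled count per kb, members of a list or of a neighbourhood, the 3 nearest on each side of the limit, and the 5 highest and 5 lowest ratios of E14.5 to E11.5. Members named outside it, such as Itgb2, Hoxc12 and Rgs5, were chosen after their values were seen. Alternatives were other scalings, minimums of reads, added values, fold limits, TPM and intervals, and those added after the data were seen are given as such.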

Additional observations from a re-analysis of the deposited data

How the results depend on the processing

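The number of members was 109. It was between 81 and 122 with TMM, with size factors from features with 1000 or more counts or from protein-coding genes, and with 10 or a fraction of 1 added. With total counts it was 44, of which 30 were protein-coding and 36 higher at E14.5 than at E11.5, and the median log2 ratio of E14.5 to E11.5 over the 109 members was −0.55. With a minimum of 20 reads the set had 183 members, 142 protein-coding and 100 higher at E14.5, with 200 reads 56, 44 and 36, and without a minimum 437 members. A 1.5-fold limit gave 295 members, 250 protein-coding and 127 higher at E14.5, and a 3-fold limit gave 42, 29 and 27. The deposited TPM gave 14 members. When the nearer end of every counting interval had to reach 2-fold, 47 were left. Chosen after seeing the data, a rule without E11.5 gave 295 features, 80 of them members, a rule without E14.5 gave 798, 100 of them members, and 98 members had every interval above 1, or 65 with total counts. A gap of 20 kb gave 2 neighbourhoods and a gap of 500 kb gave 5, in place of 3. The cause of these differences was not tested, apart from looser or stricter limits passing more or fewer features.

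For the 42 members that the naming rule gave, 84 log2 ratios were recomputed under each of 5 alternatives. Total counts moved 54 of them beyond their counting interval and turned the weakest ratio of Osr1 to −0.049 and of Pgm5 to −0.079. Of the members named outside the rule, which these counts leave out, Rac2, Rgs5 and Slitrk6 turned as well, with ratios of 0.995, 0.971 and 0.983. TMM moved 12, size factors from 1000 or more counts moved 7, 10 added moved 3 and a fraction of 1 added moved 0. Depth limits the members with few reads at E14.5, where the median member had 83 counts and the lowest 1.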

Other observations

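The features left out by name that had the largest dips were rRNA and short RNAs. Rn5s10 had 59, 0, 2 and 375 counts in the order of the days, and n-R5s136 had 248, 22, 16 and 869. The hairpin feature mir-6240 had 2164, 153, 130 and 7936 counts and mir-6236 had 71026, 9952, 9059 and 255341. Mitochondrial rRNA differed from them, since the largest difference in log2 ratio from Rn18s-rs5 over the 3 steps was 4.98 for Rnr1 and 5.33 for Rnr2, against 0.48 for mir-6236 and 0.73 for mir-6240.

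Other members of the set were not in any list. Wnt7b, a Wnt ligand, had 2401, 1026, 1270 and 3793 counts, Pdgfb, a growth factor, had 2125, 786, 812 and 1953, and Tbr1, a T-box factor of the forebrain, had 4421, 1689, 1386 and 4334. Grhl2, a factor of epithelia, had 241, 15, 15 and 31, and Rgs5, a gene of pericytes, had 1136, 117, 168 and 162. With total counts E14.5 was 0.971 of E13.5 in Rgs5, and of these 5 genes Pdgfb and Tbr1 still met the rule. These genes were named after their values were seen.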
